A study of Mus musculus with 24 samples.

Results

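The genes described here are 9 members of the mouse MHC class I and interferon pathway, of 24062 genes in the count tables: the heavy chains H2-K1, H2-D1 and H2-T24, the light chain B2m, the peptide loading genes Tap1, Tap2 and Tapbp, and the interferon genes Irf7 and Oasl2. They were chosen by name, with measured values in view for 2 of them: H2-T24 for its level in KO TRAP libraries and Oasl2 for its level in TRAP against input. For those comparisons their values are given as a description, with no test.

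The study compared Celf6 knockout (KO) and wild-type (WT) mouse brains at postnatal day 9. CELF6 binds RNA and belongs, with CELF1 and CELF2, to a family that regulates splicing and RNA stability. From tissue behind the thalamus, with the cortex removed, RNA was taken in 2 forms: TRAP, in which tagged ribosomes of serotonin cells are captured with the RNA they translate, and input, the total RNA of the tissue. The groups were KO TRAP (5 libraries), WT TRAP (5), KO input (5) and WT input (3). The labels give no treatment, and their strain field holds only a placeholder. They call the TRAP allele serotonin cell specific without naming its promoter, and they do not say whether input brains all carried it or whether brains were pooled.

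MHC class I molecules present peptides from inside the cell to T cells and to some natural killer cell receptors. A heavy chain folds with the light chain B2m in the endoplasmic reticulum, TAP1 and TAP2 pump peptides in, and tapasin, the product of Tapbp, helps to load them. Interferons raise the transcription of these genes through JAK and STAT proteins and interferon regulatory factors such as IRF7. In the brain, microglia and endothelial cells carry much of this pathway, and neurons use some class I genes at a lower level, where they have been studied in the development of synapses.

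Interferon regulatory factors bind short GAAA repeats in the promoters of class I genes, so the promoter windows of the members were searched on both strands, 250 bases before to 50 after the gene start. RefSeq (GRCm38.p6, the mm10 build) gave a window for 7 of the 9 genes. The 3 sites are shown because they are the matches to AANNGAAA among the members, with the matched bases in capitals.
B2m, chr2:122147540-122147565, plus strand: aagaacatGAAACTGAAAatgggaaa
H2-K1, chr17:34000422-34000445, minus strand: ctccacagTTTCACTTctgcacct
H2-D1, chr17:35262936-35262959, plus strand: ctcctcagTTTCACTTctgcacct
In B2m the capitals mark the longer motif, GAAA followed by any 2 bases and GAAA again, inside which AANNGAAA lies. In H2-K1 and H2-D1 the match lies on the strand opposite to the gene, and both printed stretches carry the same capitals. The longer motif was in 3.44% of 32851 promoter windows of all genes and in B2m alone among the members. AANNGAAA was in 23.9% of all windows. The STAT motif TTCNNNGAA was in 8.3% of all windows and in 0 of the members. The B2m site starts 139 bases before the gene start, the H2-D1 site 150 bases before it, and the H2-K1 site 90 or 104 bases before it, depending on which of 2 starts is taken. These are matches of letters, and binding was not measured.

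Reads were counted per gene without strand, and totals ran from 3390423 to 6861963 counts in the 19 libraries used, with 13788 to 15892 genes seen. Celf6 had 51.3 ± 38.1 CPM (counts scaled to library size, TMM-normalized) in KO TRAP and 142 ± 41.5 CPM in WT TRAP (SD, n = 5 each), and 15.2 ± 6.37 CPM in KO input (n = 5) and 51.0 ± 47.2 CPM in WT input (n = 3), with overlap between the groups of both kinds. The library labelled KO TRAP 1 held 115 CPM of Celf6, within the WT TRAP range of 85.3 to 188 CPM, while the other 4 KO TRAP libraries held 21.4 to 56.5 CPM. The library labelled WT input 2/3 held 15.4 CPM, within the KO input range of 4.79 to 22.02 CPM. Values without these libraries are given for some of the results they touch. Of 13 serotonergic markers, 11 were higher in TRAP than in input, among them Tph2, the serotonin-making hydroxylase. WT input 2 and 3 agreed within sampling noise, as repeat runs of 1 library do (chi-square of 1.37 per gene, against 1.39 to 2.67 for the repeat runs and 26.2 to 95.4 for other pairs in a group), and were summed and counted as 1 sample. KO TRAP 1 and WT input 5 held both Xist and Y-linked RNA, and in 2 of 7 pairs the TRAP and input libraries of the same number did not match in these genes (KO 1 and WT 5). The labels do not say that libraries come from separate litters or days, so p-values measure the spread between these libraries. In such tissue, fewer cells of a type and less RNA per cell cannot be told apart.

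**Figure D1:**
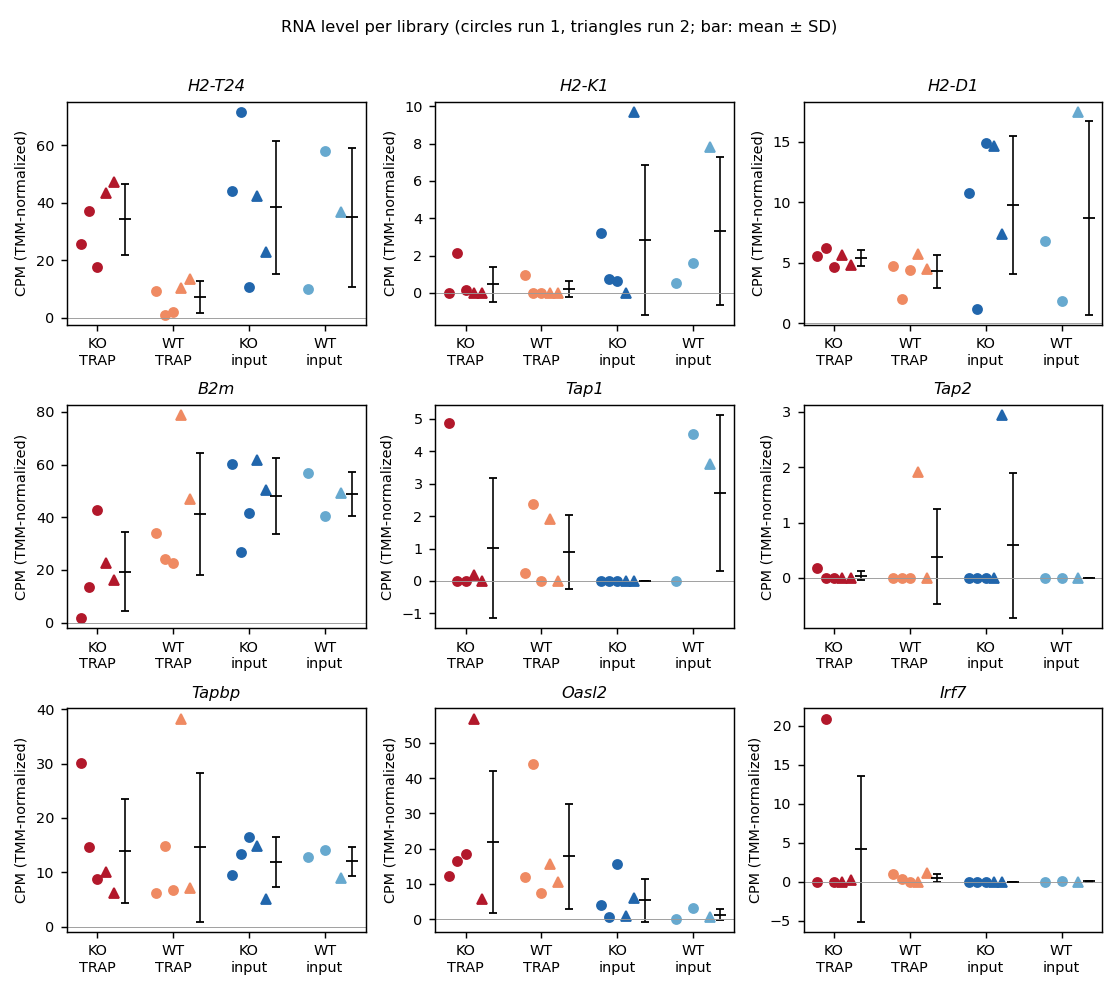
Level of each of the 9 genes in the 18 libraries, as TMM-normalized CPM on a linear axis. Columns are KO TRAP, WT TRAP, KO input and WT input. Each point is 1 library (circles sequencing run 1, triangles run 2) and the black bar is the mean ± SD. The 5 KO TRAP libraries of H2-T24 lie between 17.5 and 47.3 CPM, above all 5 WT TRAP libraries at 1.11 to 13.5 CPM, while the input groups overlap.

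H2-T24 is a heavy chain gene of the class Ib kind, in the T region of the MHC, and lies at chr17:36005695-36020560 on the minus strand with 6 exons. Its level was low in WT TRAP and several times higher in KO TRAP, KO input and WT input. KO TRAP libraries 1 to 5 held 25.8, 37.1, 17.5, 43.3 and 47.3 CPM, against 9.27, 1.11, 1.95, 10.5 and 13.5 CPM in WT TRAP libraries 1 to 5. Every KO TRAP library was above every WT TRAP library, and KO TRAP 3 was the nearest to them. The fitted log2 fold change of KO against WT in TRAP was 2.38 ± 0.61 (SE), a 5.2-fold difference, which was the third smallest p of 12204 genes in that comparison and the reason for its choice. Just ahead of it by p stood Bambi at a log2 fold change of −5.21, and just behind it Cd68 at −5.12. Libraries of KO TRAP and WT TRAP did not overlap for 0.721% of the genes tested. Of these tested genes, 0% (0 of 12204) passed an adjusted p of 0.05 with edgeR's quasi-likelihood test. An unadjusted p under 0.05 was found for 455 (3.73%), and DESeq2 called 1.

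Since the KO TRAP and WT TRAP libraries of H2-T24 did not overlap, its difference could not change sign between the sequencing runs. The sizes below are a description. In run 1 the mean log2 CPM was 3.18 higher in the 3 KO TRAP libraries than in the 3 WT TRAP libraries, and in run 2 it was 1.91 higher in 2 libraries against 2. Without the library labelled KO TRAP 1, which held both Xist and Y-linked RNA and a WT level of Celf6, the log2 fold change was 2.36. A second run of the same libraries gave similar counts of H2-T24, with 117 and 83 counts for KO TRAP 3 in its first and its repeat run and 11 and 10 counts for WT TRAP 3. These repeat runs show the error of sequencing and not that of the brains.

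In input, H2-T24 was spread widely within each genotype. KO input libraries 1 to 5 held 44.2, 71.6, 10.9, 42.2 and 22.9 CPM, against 9.95, 57.9 and 36.8 CPM in WT input 1, 2/3 and 5. The ranges overlapped, with the lowest value of each genotype near 10 CPM. KO against WT gave a log2 fold change of 0.13 ± 0.63 (SE), and no difference was called (edgeR adjusted p = 1.0, and a 2-sided exact permutation p of 0.821 over the 5 and 3 libraries). The sign of this small difference turned to −0.33 without WT input 1 and to −0.25 without KO input 2, and it was 0.84 without WT input 2/3 and 0.31 without WT input 5. As a description, the KO against WT difference in TRAP minus the one in input was 2.17 ± 0.89 (log2, SE) and 1.25 without WT input 2/3. It was 0.78 with the replicate number as a block, a fit that leaves WT input 2/3 out as well. In that fit WT TRAP 2, 3 and 4 have no input of their number, so its WT side rests on numbers 1 and 5. Without the block, leaving out any library but WT input 2/3 gave 1.88 to 2.68.

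Set against input of the same genotype, H2-T24 was at −0.27 ± 0.59 (log2, SE) in KO TRAP and at −2.44 ± 0.68 in WT TRAP. The mean over both genotypes was −1.36 ± 0.46, and −0.39 with the replicate number as a block. That fit leaves WT input 2/3 out, and its WT side rests on numbers 1 and 5. In WT, 3 of 5 TRAP libraries lay below all 3 input libraries, and in KO none of the 5 TRAP libraries lay outside the range of the input libraries. The KO TRAP and WT TRAP values that chose the gene enter these differences, so no test is given.

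Marker lists of other cell types were summed beside H2-T24. For KO against WT in TRAP 0 of their genes were called, as over all 12204 genes tested. The 15 microglial and macrophage markers summed to 43.7 to 82.9 CPM in KO TRAP and 44.4 to 175 CPM in WT TRAP. Of the 8 tested, 2 were positive and 6 negative for KO against WT, and Tmem119, a defining microglial gene, was at 0 in all 5 KO TRAP libraries. The 9 fibroblast and meningeal markers summed to 48.2 to 269 CPM in KO TRAP and 127 to 681 CPM in WT TRAP, and the 7 ependymal and choroid plexus markers to 34.5 to 324 CPM in KO TRAP and 35.8 to 1851 CPM in WT TRAP. Of the fibroblast list 7 were tested (2 positive, 5 negative), and of the ependymal list 5 (1 positive, 4 negative). Of all genes tested, 48% were negative. Every gene of these last 2 lists had counts in both groups. The 13 serotonergic markers summed to 5875 to 10432 CPM in KO TRAP and 4231 to 10708 CPM in WT TRAP. The astrocyte list (10 tested) had a median log2 fold change of 0.055 for KO against WT in TRAP, and the oligodendrocyte list (11 tested) one of −0.036. All these sums overlapped between KO TRAP and WT TRAP. The part of these cells in the values of H2-T24 was not tested.

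The 6 nearest tested genes on each side of H2-T24 did not share its difference. They lay 28.4 to 949 kb away, and on the side of higher coordinates the nearest was 244 kb away. Of 25 further class I and class I-like genes, 0 were tested for KO against WT in TRAP. Among the neighbours, that comparison was positive for 6 and negative for 6, with a median log2 fold change of −0.014. The range ran from −0.80 ± 1.18 for Znrd1as to 0.49 ± 0.38 for Trim26, a tripartite motif gene. The nearest of them was Gnl1, a GTP-binding protein gene 28.4 kb away between gene middles, at −0.38 ± 0.34. The gene A930015D03Rik overlaps H2-T24 on the other strand, but shares none of its exon bases.

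**Figure D2:**
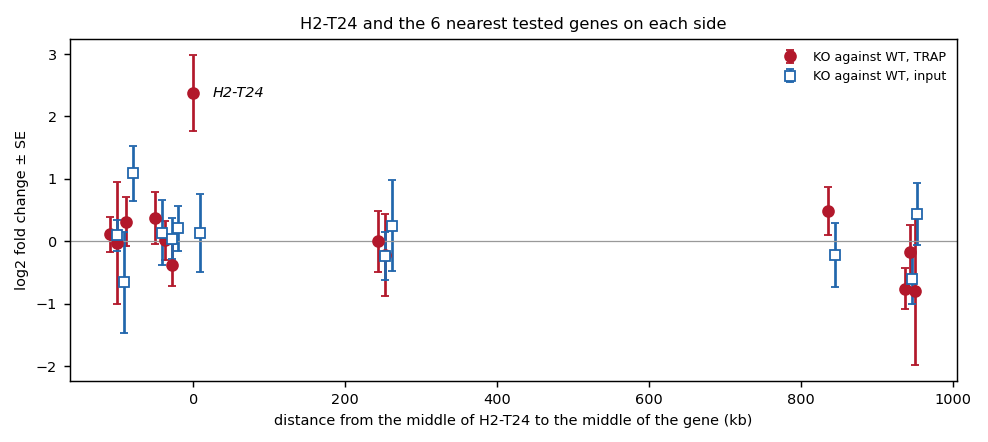
Log2 fold change of KO against WT (± SE) for H2-T24 and the 6 nearest tested genes on each side, by distance in kb between gene middles. Filled circles are TRAP and open squares, shifted right for sight, are input. H2-T24 in TRAP stands at 2.38, and its neighbours in TRAP between −0.80 and 0.49.

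Across the 18 libraries, the genes whose log2 CPM followed H2-T24 most closely were Pou3f2 (Pearson r = 0.825), Plekhg1 (0.807) and Gpatch8 (0.804), among 11350 genes with a mean of at least 5 CPM. These are descriptions over 18 libraries that share groups and runs.

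The classical heavy chains H2-K1 and H2-D1, which present peptides to cytotoxic T cells, were at low levels in both kinds of RNA. H2-K1 (chr17:33996012-34000333, minus strand) held counts in 3 of 10 TRAP libraries and in 7 of 8 input libraries. Its TRAP levels were 2.13 CPM in KO TRAP 2, 0.15 CPM in KO TRAP 3 and 0.95 CPM in WT TRAP 1, and 0 in the other 7. KO input libraries 1 to 5 held 3.20, 0.73, 0.64, 0 and 9.71 CPM, and WT input libraries 1, 2/3 and 5 held 0.52, 1.60 and 7.84 CPM. The highest input levels of both genotypes were in run 2, while TRAP libraries in run 2 held no count of it.

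A count of 3 in a library stands for 0.252 to 0.904 CPM, depending on the library, so levels of H2-K1 below that are not told from none. TRAP against input gave a log2 fold change of −3.31 ± 1.48 (SE) for H2-K1, which did not pass (edgeR adjusted p = 0.217). KO against WT in input was 0.03 ± 1.29 (edgeR adjusted p = 1.0, exact permutation p = 0.714), and the gene did not reach the expression filter in TRAP.

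H2-D1 (chr17:35263094-35267497, plus strand) was counted in all 18 libraries. Of its 1736 exon bases, 1060 (61.1%) are shared with the annotated gene H2-L, to which 0 counts were given in any library. The counting left out reads that fall on 2 genes, so H2-D1 counts come mainly from the remaining 676 bases and understate it as CPM. KO TRAP libraries 1 to 5 held 5.61, 6.21, 4.65, 5.65 and 4.81 CPM, against 4.75, 2.05, 4.43, 5.75 and 4.52 CPM in WT TRAP. These 10 libraries lay close together, apart from the lower WT TRAP 2, and the genotypes overlapped. KO input libraries held 10.8, 1.17, 14.9, 14.6 and 7.35 CPM, and WT input libraries 6.81, 1.85 and 17.5 CPM, a far wider spread that took in the whole range of TRAP.

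KO against WT was 0.33 ± 0.82 in TRAP and 0.38 ± 0.96 in input for H2-D1 (log2, SE), with edgeR adjusted p = 1.0 in both and exact permutation p = 0.119 and 0.893. TRAP against input was −0.87 ± 0.60 (edgeR adjusted p = 0.462). Heavy chain sequences are alike between H2 genes, and reads that aligned to several places were not counted, so a read that fits more than 1 of them is missing from all.

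Of 25 further class I and class I-like genes, 4 reached the filter for TRAP against input, and 0 passed, where 4.72% of all genes did. H2-M3, which presents formylated peptides, was at 1.82 ± 1.94 CPM in KO TRAP and 1.36 ± 1.15 CPM in WT TRAP (SD, n = 5 each), against 0.20 ± 0.46 CPM in KO input (n = 5) and 0.48 ± 0.82 CPM in WT input (n = 3). That difference was 2.45 ± 1.397 (log2, SE; edgeR adjusted p = 0.353). Fcgrt, the receptor that recycles antibodies, was at −1.93 ± 1.01 (adjusted p = 0.305). Mr1, which presents vitamin metabolites, was at −2.91 ± 1.67 (adjusted p = 0.356), with 13.8 CPM in KO TRAP 4 and 0 in the other 4 KO TRAP libraries. In KO TRAP, 14 of the 25 genes had no count, among them H2-Q4, H2-Q6 and H2-Q7, which also had none in the other 3 groups.

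B2m, the light chain that all class I heavy chains need, lies at chr2:122147687-122153082 on the plus strand and had the highest mean of the 9 genes per kilobase of exon in every group. Its mean level was 19.3 ± 15.1 CPM in KO TRAP and 41.3 ± 23.1 CPM in WT TRAP (SD, n = 5 each), against 48.1 ± 14.3 CPM in KO input (n = 5) and 48.8 ± 8.31 CPM in WT input (n = 3). KO TRAP libraries 1 to 5 held 1.68, 13.4, 42.6, 22.8 and 16.0 CPM, against 34.0, 23.99, 22.7, 78.8 and 47.0 CPM in WT TRAP. Of the KO TRAP libraries, 3 lay below every WT TRAP library, and KO TRAP 3 lay within their range. KO input libraries held 60.04, 27.0, 41.6, 61.6 and 50.3 CPM, and WT input libraries 56.9, 40.3 and 49.1 CPM.

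KO against WT in TRAP was −0.97 ± 0.61 for B2m (log2, SE), which did not pass (edgeR adjusted p = 1.0, exact permutation p = 0.0794, where the smallest p that 252 splits allow is 0.00794). It was −1.77 without KO TRAP 3 and −0.72 without the library labelled KO TRAP 1, and the mean log2 CPM was lower by 1.397 in run 1 and by 1.67 in run 2. The input difference was −0.06 ± 0.40 (edgeR adjusted p = 1.0, exact permutation p = 1.0). TRAP against input gave −0.83 ± 0.39 over both genotypes (edgeR adjusted p = 0.242). Without KO TRAP 3 it was −1.27 and passed, at an edgeR adjusted p of 0.0374. Over all alternatives that adjusted p ran from 0.0374 to 0.42.

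The median sum of microglial markers was 48.7 CPM in KO TRAP, 69.8 CPM in WT TRAP, 132 CPM in KO input and 116 CPM in WT input, with overlapping ranges. KO TRAP had the lowest mean of B2m and the lowest of these medians. Within it, KO TRAP 1 had the lowest level of B2m and a microglial sum of 62.5 CPM, above the group median. Over both genotypes 14 of 15 microglial markers and 10 of 15 endothelial and mural markers were negative for TRAP against input, with 0 called in each list. Of all genes tested, 48.4% were negative and 4.72% were called. The endothelial and mural sums were 25.8 to 83.5 CPM in KO TRAP, 39.8 to 122 CPM in WT TRAP, 53.2 to 119 CPM in KO input and 64.8 to 96.6 CPM in WT input. The endothelial and mural medians were 67.2 CPM in KO TRAP, 58.7 CPM in WT TRAP, 79.7 CPM in KO input and 71.4 CPM in WT input, lowest in WT TRAP. The part of these cells in the level of B2m was not tested. Patl2 overlaps B2m on the other strand and shares none of its 858 exon bases. The genes most like B2m across the 18 libraries were Abhd6 (r = 0.966), Mob3b (0.915) and Slc6a2 (0.893), the last of which encodes the noradrenaline transporter. Among the 5 members counted well enough for this comparison, the 10 pairs had r between −0.35 and 0.22 over the 18 libraries.

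**Figure D3:**
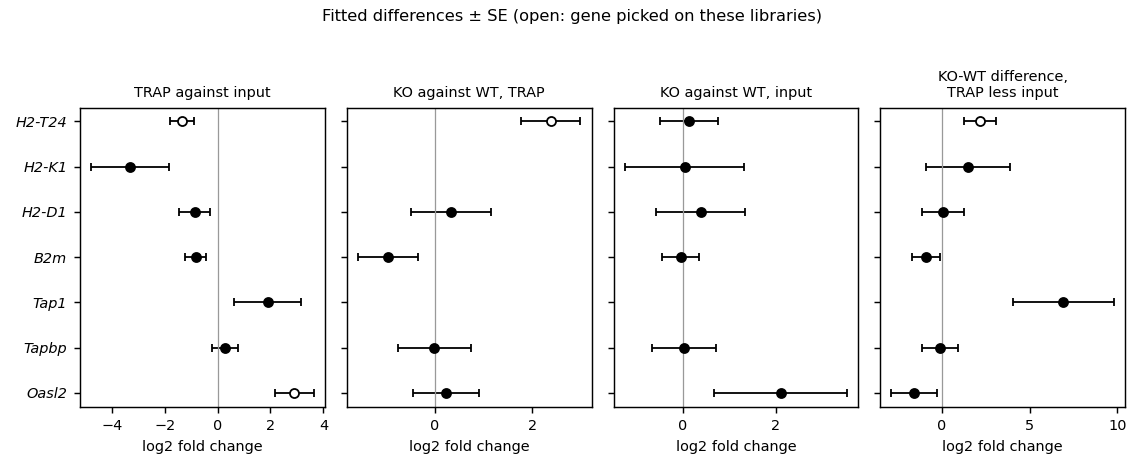
Fitted log2 fold change ± SE of the tested members in 4 comparisons: TRAP against input, KO against WT in TRAP, KO against WT in input, and the KO against WT difference in TRAP minus the one in input. Open circles mark values that chose the gene and, for H2-T24, values that include them. Oasl2 is filled in the last comparison, though that value draws on the libraries that chose it. Open values reach 2.38 for H2-T24 in KO against WT in TRAP and 2.91 for Oasl2 in TRAP against input, and 0 of the filled values passed an adjusted p of 0.05.

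The peptide transporter was near the limit of detection. Tap1 (chr17:34187556-34197225, plus strand) had counts in 7 of 18 libraries. It stood at 4.86 CPM in KO TRAP 1 and at 0.19 CPM in KO TRAP 4, against 0.24, 2.37 and 1.92 CPM in WT TRAP 1, 2 and 4. In input it was at 0 in all 5 KO libraries and in WT input 1, and at 4.54 and 3.62 CPM in WT input 2/3 and 5. Tap1 was thus seen in some libraries of 3 groups and in none of KO input.

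TRAP against input gave 1.89 ± 1.25 for Tap1 (log2, SE; edgeR adjusted p = 0.444) and turned to −0.06 without KO TRAP 1. The KO against WT difference in TRAP minus the one in input had an unadjusted p of 0.0249 and an edgeR adjusted p of 1.0. Its fitted size depends on how a group at 0 is treated and is not given. Tap2 (chr17:34204479-34216321, plus strand) had 19 counts in all, from KO TRAP 1, WT TRAP 4 and KO input 5, and did not reach the filter in any comparison.

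Tapbp (chr17:33919478-33929290, plus strand), whose product tapasin bridges the transporter and the heavy chain, was counted in all 18 libraries. KO TRAP libraries 1 to 5 held 30.1, 14.7, 8.70, 9.99 and 6.14 CPM, against 6.18, 14.8, 6.73, 38.3 and 7.13 CPM in WT TRAP. In each group 1 library was far above the others. KO input libraries held 9.44, 13.4, 16.4, 14.9 and 5.00 CPM, and WT input libraries 12.7, 14.2 and 9.04 CPM. KO against WT was −0.01 ± 0.75 in TRAP and 0.02 ± 0.70 in input (log2, SE; edgeR adjusted p = 1.0 in both, exact permutation p = 0.873 and 1.0). TRAP against input was 0.27 ± 0.50 (edgeR adjusted p = 0.826). These values were small beside their errors, and their sign turned under several settings.

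The wider list of peptide supply and assembly genes held 11 others, all tested for TRAP against input, and 1 passed, against 4.72% of all genes. Psme1, an activator subunit of the proteasome that interferon gamma induces, was at 254 ± 63.0 CPM in KO TRAP and 284 ± 113 CPM in WT TRAP (SD, n = 5 each), against 149 ± 56.7 CPM in KO input (n = 5) and 115 ± 59.6 CPM in WT input (n = 3). It was higher in TRAP by 1.03 ± 0.26 (log2, SE; edgeR adjusted p = 0.0205). Nlrc5, the transactivator of class I genes, averaged 1.29 CPM in KO TRAP and 2.50 CPM in WT TRAP. It had no count in any of the 8 input libraries, nor in KO TRAP 1, 3 and 4 and WT TRAP 2 and 4. Levels were 2.45 and 4.01 CPM in KO TRAP 2 and 5, and 0.24, 6.56 and 5.70 CPM in WT TRAP 1, 3 and 5. Its edgeR adjusted p was 0.0642, which did not pass. Psmb8, an immunoproteasome subunit, was at −3.92 ± 1.33 (adjusted p = 0.0903). The median of the 11 was −0.19, against 0.025 over all genes. KO against WT in TRAP was tested for 7 of them and 0 passed, as over all 12204 genes.

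Oasl2 (chr5:114896934-114912245, plus strand) encodes a 2′-5′ oligoadenylate synthetase-like protein and is induced by interferon. It was higher in TRAP than in input in both genotypes. KO TRAP libraries 1 to 5 held 12.2, 16.5, 18.5, 56.9 and 5.61 CPM and WT TRAP libraries 11.9, 44.0, 7.44, 15.6 and 10.5 CPM. KO input libraries held 3.88, 0.73, 15.6, 0.96 and 5.88 CPM and WT input libraries 0.17, 3.19 and 0.60 CPM. In WT every TRAP library was above every input library, as for 3.62% of all genes tested, and in KO the 2 sets overlapped, since KO input 3 lay above KO TRAP 1 and 5 and KO input 5 above KO TRAP 5.

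TRAP against input was 2.91 ± 0.73 for Oasl2 (log2, SE), a 7.5-fold difference, at rank 31 by size among 323 genes higher in TRAP with at least 5 CPM. This is the value for which the gene was chosen. In all, 673 of 14261 genes (4.72%) passed for TRAP against input, 343 higher (2.41%) and 330 lower (2.31%). With the replicate number as a block, where the WT side rests on numbers 1 and 5, 243 passed. By genotype, the value was 2.12 ± 0.88 in KO and 3.69 ± 1.14 in WT. Within run 1 the difference of mean log2 CPM was 3.09, and within run 2 it was 3.46. Leaving out any 1 library gave 2.47 to 3.78, the lowest without KO TRAP 4 and the highest without WT input 2/3. It was 3.03 without KO TRAP 1 and 2.73 without WT input 5.

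The genotypes did not differ by call in Oasl2. KO against WT was 0.23 ± 0.68 in TRAP (log2, SE; edgeR adjusted p = 1.0, exact permutation p = 0.762) and −0.65 without KO TRAP 4 and 0.43 without the library labelled KO TRAP 1. In input it was 2.11 ± 1.44 (edgeR adjusted p = 1.0, exact permutation p = 0.143, where 56 splits allow no p below 0.0357), and it ran from 1.09 without KO input 3 to 3.63 without WT input 2/3. 3 of the 5 KO input libraries lay above all 3 WT input libraries. The genes most like Oasl2 across the 18 libraries were Scamp1 (r = 0.827), Hmx2 (0.822) and Tspyl2 (0.817).

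Irf7 (chr7:141263183-141266424, minus strand), the regulator that amplifies type I interferon transcription, held 142 counts in the 18 libraries, of which 128 were in KO TRAP 2. That library stood at 20.9 CPM and KO TRAP 5 at 0.27 CPM, with 0 in KO TRAP 1, 3 and 4. WT TRAP libraries 1, 2 and 5 held 0.95, 0.32 and 1.19 CPM and the other 2 none. In input, WT input 2/3 held 0.17 CPM and the other 7 libraries none. The gene did not reach the expression filter in any comparison. Fitted without that filter, TRAP against input was 5.16 ± 1.61 (log2, SE) and passed at an edgeR adjusted p of 0.0308, with most of the counts from 1 library.

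The rest of the interferon pathway was measured alongside. The 8 interferon genes listed had 0 counts in KO TRAP and WT TRAP, 1 in KO input and 2 in WT input, over all libraries of each group. Their receptors and signal proteins were present: 14 of 15 were tested for TRAP against input, with 0 passing and a median of −0.31. The share passing over all genes was 4.72%. Jak1, the kinase of interferon receptors, was at 0.56 ± 0.25 (log2, SE; edgeR adjusted p = 0.213), and Stat2 at −0.84 ± 0.43 (adjusted p = 0.301).

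For KO against WT in TRAP, 12 of these 15 were tested and 0 passed, as over all 12204 genes, and the median was −0.20. Ifngr1, a chain of the interferon gamma receptor, had 1.398 ± 1.17 CPM in KO TRAP and 8.11 ± 6.08 CPM in WT TRAP (SD, n = 5 each), at −2.45 ± 1.13 (log2, SE; edgeR adjusted p = 1.0). Irf2, a repressor of interferon responses, was at −0.98 ± 0.51 (adjusted p = 1.0) and Stat2 at −0.76 ± 0.66 (adjusted p = 1.0).

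Of 47 interferon-induced genes, 30 were tested for TRAP against input and 0 passed, with 12 positive, 18 negative and a median of −0.25. Over all genes, 4.72% passed and 48.4% were negative. The smallest p belonged to Rtp4, a receptor transport protein (−2.48 ± 1.11, edgeR adjusted p = 0.216), Isg20, an exonuclease (3.50 ± 1.58, adjusted p = 0.222), and Adar, the RNA-editing enzyme (0.54 ± 0.25, adjusted p = 0.232). For KO against WT in TRAP 14 were tested, 6 positive and 8 negative, with a median of −0.39 against 0.025 over all genes. None passed, as over all 12204 genes. Ifi27 was at −1.80 ± 0.96, Cmpk2, a mitochondrial nucleotide kinase, at −0.79 ± 0.57 and Trim25, a ubiquitin ligase of RNA sensing, at 0.83 ± 0.65 (log2, SE; edgeR adjusted p = 1.0 for each). The summed level of the 47 genes was 303 to 443 CPM in KO TRAP, 274 to 435 CPM in WT TRAP, 234 to 430 CPM in KO input and 279 to 326 CPM in WT input, which overlap.

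**Figure D4:**
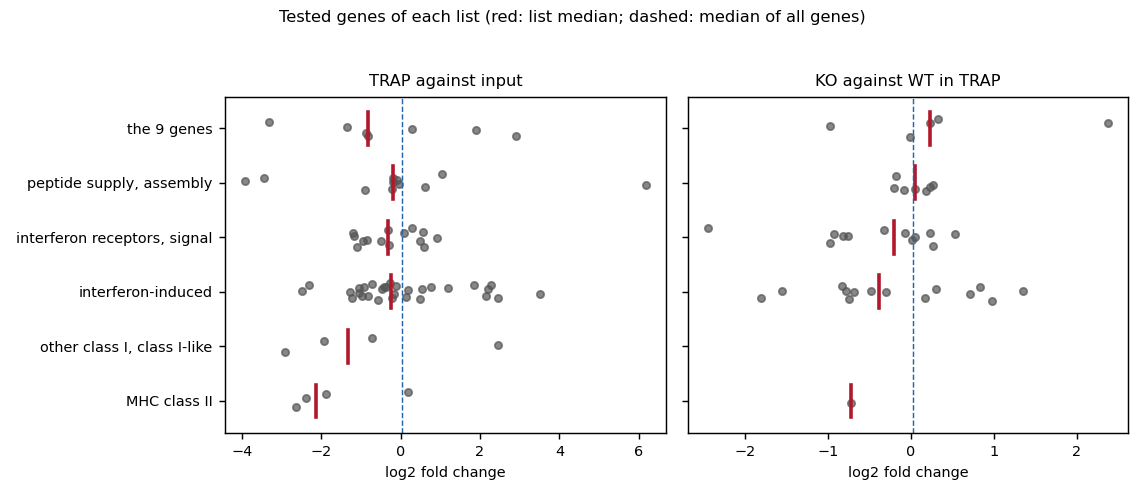
Log2 fold change of each tested gene of 6 lists for TRAP against input and for KO against WT in TRAP. Points are genes, jittered vertically for sight, red bars are list medians and the dashed line is the median of all genes tested (0.025 in both). For TRAP against input the medians are −0.25 for interferon-induced genes and −2.14 for MHC class II genes.

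MHC class II genes present peptides from outside the cell. Of 7, 4 were tested for TRAP against input, with 1 positive, 3 negative, 0 passing and a median of −2.14. Among all genes 4.72% passed and the median was 0.025. H2-DMa, a chain of the class II peptide exchanger, had the positive value (0.19 ± 0.49, log2, SE; edgeR adjusted p = 0.885). It was at 14.1 ± 11.1 CPM in KO TRAP and 19.9 ± 7.31 CPM in WT TRAP (SD, n = 5 each), against 12.5 ± 5.47 CPM in KO input (n = 5) and 15.4 ± 11.1 CPM in WT input (n = 3). It was the only class II gene tested for KO against WT in TRAP, at −0.73 ± 0.59 (edgeR adjusted p = 1.0). H2-Ab1, a class II beta chain, averaged 0.35 CPM in KO TRAP, 1.95 CPM in WT TRAP, 5.82 CPM in KO input and 2.94 CPM in WT input (−2.63 ± 1.15, edgeR adjusted p = 0.207). H2-Eb1 was at −2.39 ± 1.497 (adjusted p = 0.409) and Cd74, the invariant chain, at −1.89 ± 1.81 (adjusted p = 0.63).

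Set per kilobase of exon not shared with another gene, the same 3 genes led in KO TRAP, KO input and WT input, namely B2m, H2-T24 and H2-D1, and WT TRAP differed in the place of H2-T24. In KO TRAP the means were 22.5 ± 17.6 CPM per kb for B2m, 15.7 ± 5.66 for H2-T24, 7.97 ± 0.96 for H2-D1, 6.99 ± 6.43 for Oasl2 and 5.07 ± 3.48 for Tapbp. In WT TRAP they were 48.1 ± 26.9 CPM per kb for B2m, 6.36 ± 2.01 for H2-D1, 5.70 ± 4.76 for Oasl2, 5.32 ± 4.98 for Tapbp and 3.34 ± 2.51 for H2-T24. H2-T24 was thus next to B2m in KO TRAP and behind Tapbp in WT TRAP. In KO TRAP the steps from B2m to H2-T24, from H2-D1 to Oasl2 and from Oasl2 to Tapbp were smaller than the larger SD of each pair, as were the steps from H2-D1 down to H2-T24 in WT TRAP.

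In KO input the order was led by B2m at 56.1 ± 16.7 CPM per kb, H2-T24 at 17.6 ± 10.6 and H2-D1 at 14.5 ± 8.47. In WT input it was led by the same 3 genes, at 56.9 ± 9.68 CPM per kb for B2m, 16.0 ± 11.01 for H2-T24 and 12.9 ± 11.8 for H2-D1, and H2-T24 and H2-D1 lay within their SD of each other in both. Oasl2 was at 1.72 ± 1.94 CPM per kb in KO input and 0.42 ± 0.52 CPM per kb in WT input. Tap1, Tap2, H2-K1 and Irf7 had group means of at most 2.28 CPM per kb, that of Irf7 in KO TRAP.

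Of the 9 genes, 7 reached the expression filter for TRAP against input (not Irf7 and Tap2). Of the 5 that were not chosen on it or on the TRAP values, 0 passed and 2 had an unadjusted p under 0.05, H2-K1 and B2m, where 4.72% of all genes passed and 19% (2708 of 14261) had an unadjusted p under 0.05. KO against WT in TRAP was tested for 5 and in input for 6. Outside H2-T24 in TRAP, 0 of them passed and 0 had an unadjusted p under 0.05. Over all genes in input, 0 of 13036 (0%) passed, 376 (2.88%) had an unadjusted p under 0.05 and DESeq2 called 0. For the KO against WT difference in TRAP minus the one in input, 0 of 14261 genes (0%) passed. There 554 (3.88%) had an unadjusted p under 0.05 and DESeq2 called 3. None of the 9 genes had an event among the 8935 splicing and 960 tandem UTR events of the authors' deposited tables.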

How the data were processed

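Counts of whole reads per gene are those the authors deposited. Per the file headers, featureCounts 1.4.6-p5 summed exon reads by gene on mm10 gene models, without strand, and left out multi-mapping reads and reads on several genes. Trimmomatic and STAR came before, per the submitters' processing notes (versions not given in the sources used here). cDNA was amplified with a Nugen kit, per the labels, and no molecular identifiers are named, so detection limits cover counting error only. The 4 repeat runs and WT input 4, labelled an outlier, stayed out of the fits.

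Quasi-likelihood tests were made with edgeR 4.0.16 in R 4.3.3, after filterByExpr and TMM scaling, with the sequencing run as covariate and Benjamini-Hochberg adjustment over all genes (threshold 0.05), and were checked on simulated counts. DESeq2 1.42.0, other scaling, no filter, no run term, leaving out each library and a replicate block were alternatives. Within-run values, correlations and exact tests (2-sided permutation) used log2 CPM with a prior count of 0.5.

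The series notes give 5 brains a genotype, so equal numbers in TRAP and input would be the same brain, but the Xist and Y-linked RNA of 2 of 7 such pairs did not match. Residuals of such pairs had r of −0.18 to 0.035 in KO and of −0.17 to −0.041 in WT, with 1 of 5 KO libraries closest to its own number.

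Named genes were the members, list genes past the threshold or with the 3 smallest p, the 3 genes most alike and the 6 neighbours a side; 1 list gene is not reported here. Members and lists were chosen with earlier results of these data known.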

Additional observations from a re-analysis of the deposited data

Results flagged for a closer look

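Within groups of 5 libraries, 10 of 25 sets of member values, as CPM on a linear scale, held a library that stood apart by Dixon's criterion. Chance meets it in about 1 of 20 groups when values are normally spread. That rate does not apply to the sets of H2-K1, Tap1, Tap2 and Irf7 named next. Most of their libraries were at 0, so that 1 library with counts can meet the criterion. H2-K1 stood apart in KO TRAP 2 (2.125 CPM) and in WT TRAP 1 (0.9503 CPM). Tap1 did so in KO TRAP 1 (4.864 CPM), and Tap2 in KO TRAP 1 (0.1871 CPM, a count of 1), WT TRAP 4 (1.915 CPM) and KO input 5 (2.941 CPM). Irf7 stood apart in KO TRAP 2 (20.93 CPM, with the nearest library at 0.267 CPM).

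Oasl2 and Tapbp were well counted and still had 1 library apart on the linear scale. Oasl2 reached 56.91 CPM in KO TRAP 4, with the nearest library at 18.5 CPM, and 44.04 CPM in WT TRAP 2, with the nearest at 15.6 CPM. Tapbp reached 38.31 CPM in WT TRAP 4, with the nearest at 14.8 CPM. In log2 CPM, to which the criterion was not applied, these libraries lay nearer to the rest. Oasl2 was at 5.83 in KO TRAP 4 (others 2.52 to 4.21) and at 5.46 in WT TRAP 2 (others 2.91 to 3.97). Tapbp was at 5.26 in WT TRAP 4 (others 2.65 to 3.90). The libraries differ between genes, and what sets them apart was not tested.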

How the results depend on the processing

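Of 493 recomputed differences of single members, 444 kept direction and side of the threshold, 48 changed sign and 1 passed. The difference of H2-T24 in KO against WT in TRAP ran from 2.09 to 3.01, and that of Oasl2 in TRAP against input from 2.47 to 3.78. The genes were chosen for these differences, and the TRAP libraries of H2-T24 did not overlap between genotypes. Their unchanged sign is thus no further evidence for them.

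The count of genes called in TRAP against input was 1290 with DESeq2, 1065 with no filter, 243 with the replicate block and 346 to 831 leaving out 1 library (363 without WT input 1, 346 without WT input 5). With no filter 1 of the members passed, Irf7, and without KO TRAP 3 also 1, B2m; leaving out others gave 0. For KO against WT in TRAP the count was 1 with DESeq2 and 16 with no filter. In input it was 4 with no filter, 6 with the replicate block and 0 to 1 leaving out 1 library (1 without KO input 3). For the difference of these it was 3 with DESeq2 and 3 with no filter.

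Sign changes touched mostly small differences, but also 2 larger ones with large errors. These were Tap1 in TRAP against input (1.89 ± 1.25, log2, SE) and H2-K1 in the KO against WT difference in TRAP minus the one in input (1.46 ± 2.40). With the replicate block, Tapbp was at −0.29 for TRAP against input, 0.073 for KO against WT in TRAP, −0.64 in input and 0.80 for the difference of these; H2-D1 was at −0.29 and B2m at 0.053 in input, and H2-K1 at −0.44 for the difference. With no filter Tapbp was at 0.0025 in TRAP. With no run term, H2-K1 was at −0.21 and Tapbp at −0.023 in input. With WT input 2 and 3 as 2 libraries, H2-T24 was at −0.034, H2-K1 at −0.073 and Tapbp at −0.015 in input, and H2-D1 at −0.22 for the difference. The cause was not tested. Ranges leaving out 1 library were −0.065 to 2.31 for Tap1 and −0.16 to 0.40 for Tapbp in TRAP against input. For KO against WT in TRAP they were −0.47 to 0.70 for Tapbp and −0.65 to 0.94 for Oasl2. In input they were −0.33 to 0.38 for H2-T24 (0.84 without WT input 2/3), −0.38 to 0.50 for H2-K1, −0.010 to 1.05 for H2-D1 (−0.15 without WT input 2/3), −0.24 to 0.13 for B2m and −0.27 to 0.18 for Tapbp, and Oasl2 was at 3.73 with the replicate block. For the difference they were −1.59 to 4.84 for H2-K1, −0.73 to 0.57 for H2-D1 and −0.52 to 0.66 for Tapbp.

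Depth limits Tap1, Tap2 and Irf7, which had no count in most libraries, and H2-K1, which had counts in 10 of 18.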
